A study of Rattus norvegicus with 4 samples.

Results

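The NF-κB signalling core was followed in INS-1 832/13 β-cells through the mRNAs of 10 genes. These encode the subunits NF-κB1, NF-κB2, RelA and RelB (Nfkb1, Nfkb2, Rela, Relb), the IκB inhibitors IκBα, IκBβ and IκBε (Nfkbia, Nfkbib, Nfkbie), the ubiquitin-editing enzyme A20 (Tnfaip3), and the canonical IκB kinases IKKα and IKKβ (Chuk, Ikbkb), which are relatives of TBK1. The genes were taken by name from a table of 15172 genes; all 10 were listed, and all 10 passed the filter on low counts that left 13953 genes for testing. INS-1 832/13 is a rat insulinoma cell line that secretes insulin in response to glucose. The labels list no other treatment of the cells, which were transfected with DharmaFECT for 36 h with a non-targeting siRNA (siScramble, control, 2 samples) or with the siGENOME SMARTpool against TBK1, a mixture of siRNAs (siTbk1, 2 samples), and polyadenylated RNA was sequenced with a stranded protocol. Nothing in the labels says whether the 2 samples of a group came from separate cultures, so that p-values measure the spread between these samples, which may be technical.

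NF-κB dimers are held in the cytoplasm of resting cells by IκB proteins. On stimulation by cytokines such as TNF or IL-1, the IKK complex phosphorylates IκB, which is then ubiquitinated and degraded, and the released dimers enter the nucleus and bind κB sites in the DNA of their target genes. Several of these targets encode the inhibitors themselves, so that the pathway restrains its own activity. In pancreatic β-cells, NF-κB is best known for its activation by inflammatory cytokines. TBK1 and IKKε are called non-canonical IKKs because of their kinship with IKKα and IKKβ.

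Total counts lay between 38428926 and 47759013 per sample. Tbk1 itself, on chromosome 7 from 63655247 to 63687979 of the rn6 build, fell from a normalized count of 2315 and 2261 in the siScramble samples to 510.4 and 575 in the siTbk1 samples (log2 fold change −2.08, standard error 0.0757, adjusted p = 3.7e-08, edgeR). This and every other adjusted p below, unless another tool is named, comes from the quasi-likelihood test of edgeR, adjusted by the Benjamini-Hochberg method over all tested genes. Normalized counts are counts scaled by effective library size to the mean of the 4 libraries. Of 12 β-cell markers, 11 were analysed, and their summed level was between 19405 and 20455 CPM (counts per 1000000) in siScramble-treated and between 14664 and 16308 CPM in siTbk1-treated cells. Single markers differed in this. Ins1 was at 10512 and 11320 CPM in control and 7407 and 6132 CPM in siTbk1-treated cells. Chga overlapped between the groups, at 5681 and 5925 CPM in control and 5756 and 5371 CPM in siTbk1-treated cells. Gcg, which encodes glucagon and marks α-cells in islets, was also present in this β-cell line. It was at 1406 and 1341 CPM in control and 803 and 862 CPM in siTbk1-treated cells. Of 8 leukocyte markers, 4 were analysed, and these summed to between 0.567 and 0.674 CPM in every library. The 7 acinar and duct markers were not analysed here, and the 2 of 7 endothelial and fibroblast markers analysed summed to between 8.71 and 9.53 CPM in control and between 2.76 and 3.25 CPM in siTbk1-treated cells. In bulk RNA, fewer cells of a type and less RNA per cell cannot be told apart, and the part of these marker levels in the results below was not tested.

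Because the NF-κB system feeds back on itself through κB sites, the promoters of the members were searched for the degenerate κB consensus and for its classic form, on both strands, in a window of 250 bases before to 50 bases after the annotated start of transcription (RefSeq, GRCr8 build). Every match to the classic form is also a match to the consensus. A promoter was on hand for 8 of the 10 genes, without Relb and Ikbkb. The consensus was found in 5 of these 8, namely Nfkb1, Nfkb2, Nfkbia, Nfkbie and Tnfaip3, against 4.18% of 33469 rat promoters of the same length. The classic form, whose letters are the capitals of the Nfkb2 line below, was found in Nfkb2 and, on the opposite strand, in Tnfaip3, against 0.111% of all promoters. The Rela, Nfkbib and Chuk windows held no match. Each matching site is shown with 10 bases on either side, read along the strand of the gene, with the match in capitals.
Nfkb1, chr2:226805440-226805469, minus strand: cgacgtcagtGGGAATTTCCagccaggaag
Nfkb2, chr1:255108344-255108373, plus strand: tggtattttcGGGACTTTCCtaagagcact
Nfkbia, chr6:78597084-78597113, minus strand: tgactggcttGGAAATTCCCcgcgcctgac
Nfkbie, chr9:22948017-22948046, minus strand: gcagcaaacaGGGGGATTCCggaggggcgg
Tnfaip3, chr1:15544130-15544159, minus strand: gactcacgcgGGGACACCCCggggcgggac
Tnfaip3, chr1:15544027-15544056, minus strand: tcacgtgactGGAAAGTCCCtcggaaatcc
Tnfaip3, chr1:15544015-15544044, minus strand: aaagtccctcGGAAATCCCCctgtggcgaa
These lines show that the sites of Nfkb1, Nfkb2 and Nfkbie read forward along the gene, whereas that of Nfkbia and the last 2 of Tnfaip3 read on the opposite strand. The first base of the match lay at −31 for Nfkbia, −20 for Nfkb2, 3 for Nfkb1 and −164 for Nfkbie, and at −170, −67 and −55 for Tnfaip3. A match describes the letters of the window and does not show that a factor binds there.

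**Figure D1:**
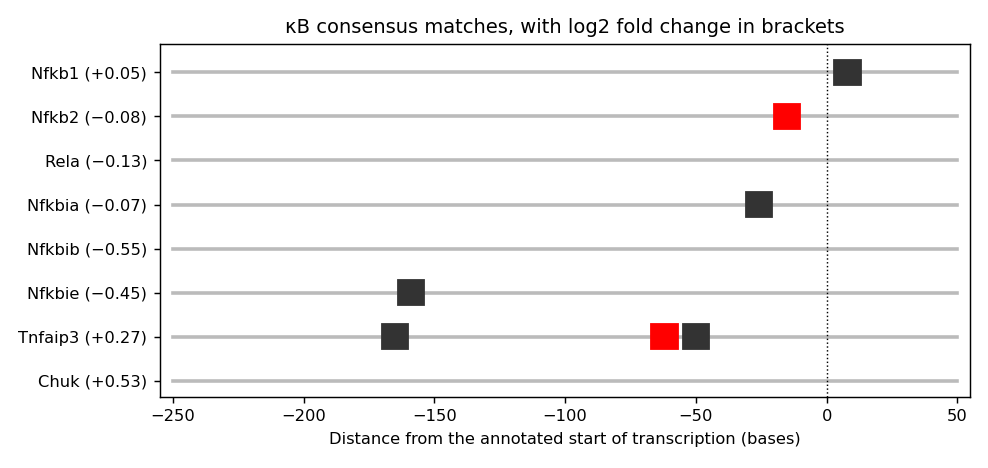
Position of matches to the κB consensus in 8 promoters, drawn as boxes 10 bases wide against the distance from the annotated start of transcription in bases; red boxes are the classic form, black boxes other matches, and the number in brackets is the log2 fold change of the mRNA. Tnfaip3 holds 3 matches, Nfkb1, Nfkb2, Nfkbia and Nfkbie hold 1 each, and Rela, Nfkbib and Chuk hold none.

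None of the 10 genes was called changed by the limits of the study, an adjusted p under 0.05 together with a fold change of at least 1.5. Of all tested genes 11.0% were called. At that share few calls are to be looked for among 10 genes, and the difference was not tested. In edgeR's quasi-likelihood test 5 of the 10 had an unadjusted p under 0.05, against 55.4% of all tested genes, and the number called with the fold limit was also 0 with DESeq2 and with limma-voom. By the adjusted p alone, without a fold limit, Chuk and Tnfaip3 were higher and Nfkbib and Nfkbie were lower in siTbk1-treated cells. That is 4 of 10, against 49.2% of all tested genes, of which 24.4% were higher and 24.8% lower. The median absolute log2 fold change was 0.19 over the 10 genes and 0.25 over all tested genes, and the median signed log2 fold change was −0.10 and 0.0071, respectively. The siScramble and siTbk1 libraries did not overlap for 7 of the 10 genes, as for 76.6% of all tested genes. For 7 of the 10, the 95% interval of the log2 fold change lay wholly within the fold limit of 1.5 in either direction, and the others were Nfkbib, Nfkbie and Chuk. The same held for 8682 of the 13953 tested genes.

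**Figure D2:**
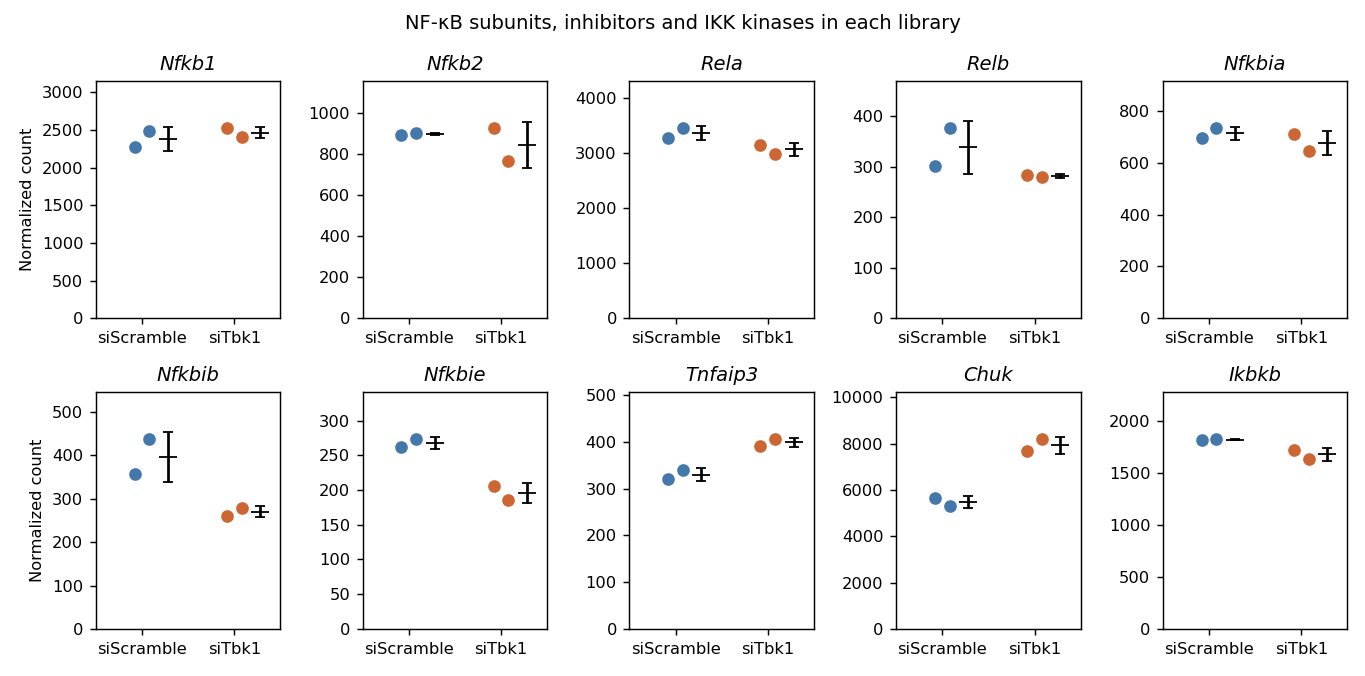
Normalized count (vertical axis, from 0) of each of the 10 genes in the 2 siScramble (blue) and 2 siTbk1 (orange) libraries, left point replicate 2 and right point replicate 3, with mean and SD in black. Chuk and Tnfaip3 lie higher and Nfkbib and Nfkbie lower in both siTbk1 libraries, while the points of Nfkb1, Nfkb2 and Nfkbia overlap.

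The Rel family subunits were tested first. Nfkb1 encodes the precursor that is processed to the p50 subunit (rn6 chr2:240773456-240866690). It was counted at 2268 (replicate 2) and 2488 (replicate 3) in siScramble-treated cells and at 2519 and 2409 in siTbk1-treated cells, in that order here and below and in normalized counts. One siTbk1 library lay above both controls and the other between them, and the log2 fold change of 0.053 was within the replicate spread (standard error 0.065, adjusted p = 0.53). Rela encodes RelA, the subunit with the main transactivation domain of the canonical pathway (chr1:220992770-221003250). Its level was 3269.5 and 3447 in siScramble-treated and 3147 and 2984 in siTbk1-treated cells. Both siTbk1 libraries lay below both controls, but the log2 fold change of −0.13 did not pass the adjusted threshold (standard error 0.060, 95% interval −0.26 to −0.00080, unadjusted p = 0.049, adjusted p = 0.088). With library size alone in place of TMM scaling it was −0.18 and passed (adjusted p = 0.028).

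Nfkb2 and Relb encode the pair of subunits that acts in the non-canonical pathway, in which the NF-κB2 precursor is processed and pairs with RelB. Nfkb2 (chr1:266053002-266059257) had a level of 893 and 901 in siScramble-treated and 923 and 764 in siTbk1-treated cells. The 2 siTbk1 libraries fell on opposite sides of the controls, and the log2 fold change came to −0.084 (standard error 0.091, adjusted p = 0.47). Relb (chr1:80517411-80544826) was measured at 301 and 375 in siScramble-treated and 284 and 279 in siTbk1-treated cells. Its siTbk1 libraries were close to each other and below both controls, which differed more. The log2 fold change of Relb was −0.26 (standard error 0.13, adjusted p = 0.11). Without siScramble replicate 2, the lower of the controls, it was −0.41 and passed (adjusted p = 0.015), and without siScramble replicate 3 it was at its smallest, −0.096.

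Of the 3 IκB inhibitors, Nfkbib and Nfkbie were lower by the adjusted p, and Nfkbia did not pass. Nfkbia encodes IκBα, the inhibitor that NF-κB itself induces most rapidly in many cells (chr6:76267228-76270458). The 4 libraries held normalized counts of 697 and 733 in siScramble-treated and 710.2 and 645 in siTbk1-treated cells. The groups overlapped, and the log2 difference between them was −0.074 (standard error 0.085, adjusted p = 0.50, 95% interval −0.26 to 0.11). This mRNA, whose promoter holds the match at −31 shown above, therefore had an interval that left out a change of 1.5-fold in either direction.

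Nfkbib encodes IκBβ, which is generally resynthesized more slowly than IκBα after stimulation (chr1:86941074-86948846). Nfkbib counts, normalized, were 356 and 437 in siScramble-treated and 261 and 279.8 in siTbk1-treated cells. Both siTbk1 libraries lay below both controls. The group means were 397 ± 57.4 and 270.5 ± 13.2 (SD, n = 2 each). This is a log2 fold change of −0.55, or 0.683-fold, the largest in absolute size among the 10 genes (standard error 0.12, adjusted p = 0.0028), and 15.9% of all tested genes changed by more in either direction. The decrease lay on either side of the fold limit according to which library was left out, at −0.40 without siScramble replicate 3 and at −0.70 without siScramble replicate 2, and it passed the adjusted threshold in every case.

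Nfkbie encodes IκBε, an inhibitor that mainly binds RelA and c-Rel dimers (chr9:17828408-17835241). It stood at normalized counts of 261 and 273 in siScramble-treated and 205 and 185 in siTbk1-treated cells. Here too both siTbk1 libraries lay below both controls. The group means were 267 ± 8.46 and 195 ± 14.3 (SD, n = 2 each), which gave a log2 fold change of −0.45 or 0.733-fold (standard error 0.12, adjusted p = 0.0099). It had the lowest counts of the 10 genes, down to 162 reads in siTbk1 replicate 3, where counting error alone is 7.86%. The call was lost without that library (adjusted p = 0.059) and with DESeq2 (adjusted p = 0.056).

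Tnfaip3 encodes A20, which edits ubiquitin chains on RIPK1 and other adaptors, terminates NF-κB signalling and is itself a classic NF-κB target (chr1:14402913-14412808). The normalized counts of Tnfaip3 were 319.5 and 339.5 in siScramble-treated and 391 and 405 in siTbk1-treated cells. Both siTbk1 libraries lay above both controls, and the mean rose from 329.5 ± 14.1 to 398 ± 10.0 (SD, n = 2 each). The log2 fold change of 0.27, or 1.21-fold, passed narrowly (standard error 0.10, adjusted p = 0.041). The call was lost with each of the 4 libraries left out in turn, with adjusted p between 0.065 and 0.18 and a log2 fold change between 0.23 and 0.32. It was also lost with DESeq2 (adjusted p = 0.18) and with library size alone in place of TMM scaling (adjusted p = 0.088).

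Of the IκB kinases, Chuk rose and Ikbkb did not pass. Chuk encodes IKKα, which takes part in the canonical IKK complex and is the kinase of the non-canonical pathway (chr1:263848884-263885170). In normalized counts it was at 5649.6 and 5291 in siScramble-treated and 7668 and 8188 in siTbk1-treated cells. Both siTbk1 libraries stood clearly above both controls. The group means were 5470.1 ± 254 and 7928 ± 368 (SD, n = 2 each), which gave a log2 fold change of 0.53 or 1.45-fold (standard error 0.058, 95% interval 0.41 to 0.66, adjusted p = 2.5e-05). Of all tested genes, 16.8% changed by more in either direction. The log2 fold change of Chuk stayed between 0.48 and 0.54 in the 12 alternative settings and between 0.49 and 0.58 with 1 library left out, and it was just under the fold limit, 0.585 on the log2 scale, in every one.

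Ikbkb encodes IKKβ, the catalytic subunit that phosphorylates IκBα in the canonical pathway (chr16:74177215-74230816). Normalized counts of Ikbkb were 1812 and 1822 in siScramble-treated and 1719 and 1632 in siTbk1-treated cells. Both siTbk1 libraries lay below both controls, which were nearly equal. At −0.12, its log2 fold change did not pass (standard error 0.063, adjusted p = 0.15). After removal of a trend along gene length it was −0.20 and did pass (adjusted p = 0.019), as it did narrowly with library size alone (adjusted p = 0.048). Ikbkg, which encodes NEMO, the regulatory subunit of the same complex, had a normalized count of 590 and 637 in siScramble-treated and 524 and 523 in siTbk1-treated cells. Ikbkg, at a log2 fold change of −0.23, was at the threshold (standard error 0.088, adjusted p = 0.049) and was lost without siScramble replicate 3 (−0.17, adjusted p = 0.26), without siTbk1 replicate 2 (adjusted p = 0.10) and without siTbk1 replicate 3 (adjusted p = 0.14), and with DESeq2 (adjusted p = 0.16) or limma-voom (adjusted p = 0.055). Ikbke, which encodes IKKε, was not analysed here.

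**Figure D3:**
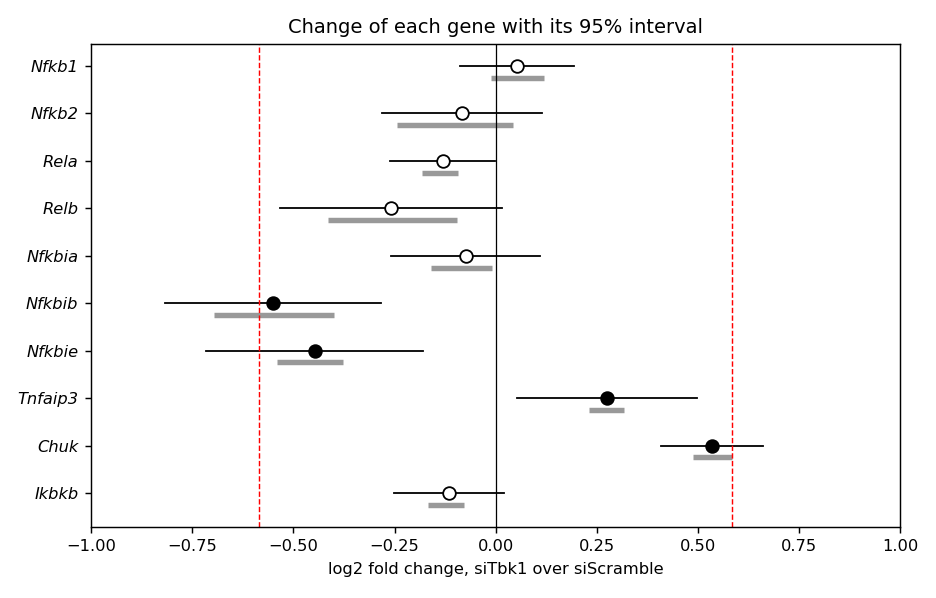
Log2 fold change (horizontal axis) of each of the 10 genes with its 95% interval (black line); filled circles passed an adjusted p under 0.05 and open circles did not, grey bars span the values with 1 library left out, and dashed red lines mark a fold change of 1.5. All 10 circles lie inside the dashed lines, with Nfkbib (−0.55) and Chuk (0.53) nearest to them.

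Ratios of counts between members within a library do not depend on how libraries are scaled. For the 10 pairs of genes that share a role, the ratio was compared between groups with an exact permutation test, two-sided, which with 2 samples against 2 cannot give a p below 0.333. The Chuk to Ikbkb ratio was 3.12 and 2.90 in siScramble-treated and 4.46 and 5.02 in siTbk1-treated cells. The exact 95% binomial intervals, which cover counting error only, were 2.75 to 3.28 over the controls and 4.24 to 5.31 over the siTbk1 libraries, and they did not meet. The ratio was thus higher by 0.65 on the log2 scale with siTbk1 (exact permutation p = 0.333, 0.667 after Benjamini-Hochberg adjustment over the 10 ratios).

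Among the inhibitors, the Nfkbia to Nfkbib ratio was 1.96 and 1.68 in siScramble-treated and 2.72 and 2.31 in siTbk1-treated cells. The Nfkbia to Nfkbie ratio was 2.67 and 2.69 in control and 3.46 and 3.49 in siTbk1-treated cells, a close agreement between replicates in both groups. Both ratios were higher in each siTbk1 library than in each control (exact permutation p = 0.333 for each, 0.667 after adjustment), by 0.47 and 0.38 on the log2 scale. The Nfkbib to Nfkbie ratio overlapped between the groups, at 1.36 and 1.60 in control and 1.27 and 1.51 in siTbk1-treated cells. Among the subunits, the Nfkb1 to Rela ratio was 0.694 and 0.722 in control and 0.801 and 0.807 in siTbk1-treated cells, and the Nfkb1 to Relb ratio also did not overlap, with means of 7.08 and 8.76. The other 4 subunit ratios overlapped between the groups.

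**Figure D4:**
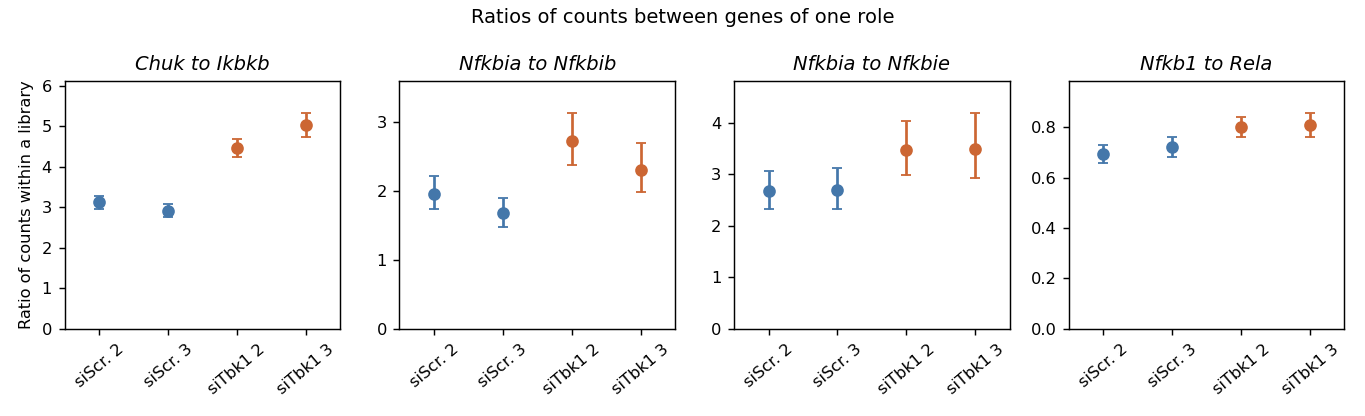
Ratio of counts within each library (vertical axis, from 0) for 4 pairs of genes, in siScramble (blue, siScr.) and siTbk1 (orange) replicates 2 and 3; bars are exact 95% binomial intervals of counting error. The siTbk1 points are higher in all 4 panels, with Chuk to Ikbkb at 2.90 to 3.12 in control and 4.46 to 5.02 in siTbk1-treated cells. All 4 are pairs whose ratios did not overlap between the groups, so this follows from the choice of panels. Ratios of other pairs overlapped.

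Position was shared by several members, since 6 of the 10 (Nfkb2, Rela, Relb, Nfkbib, Tnfaip3 and Chuk) are on chromosome 1, against 12.6% of the tested genes, and these 6 held both increases and 1 of the 2 decreases. The median genomic span, start to stop with introns, was 10.2 kb for the 10 genes and 20.1 kb for all tested genes. The genes past the adjusted threshold included spans of 6.83 kb (Nfkbie), 7.77 kb (Nfkbib), 9.89 kb (Tnfaip3) and 36.3 kb (Chuk). The estimated counts of all 10 genes lay within 0.01 of a whole number in every library.

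Genes with a κB match in the promoter and genes without one both included members that were higher and members that were lower. Of the 5 with a match, Tnfaip3 was higher (0.27), Nfkbie was lower (−0.45), and Nfkb1, Nfkb2 and Nfkbia, at 0.053, −0.084 and −0.074, did not pass. Of the 3 without a match, Chuk was higher (0.53), Nfkbib was lower (−0.55) and Rela did not pass (−0.13). Over all tested genes with a promoter on hand, the 526 with a match had a median log2 fold change of −0.014 and the 9164 without one a median of 0.0015. By the adjusted p alone, the rule used for the members here, 24.7% of the former were higher and 27.6% lower. The latter were nearly the same, at 25.2% and 26.5%. With the fold limit, 5.70% of genes with a match were called higher and 9.13% lower, and 4.63% and 5.99% of those without. These shares are given as a description, without a test.

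A list of 127 other NF-κB pathway genes in 7 groups by role placed the members in their surroundings. Of these, 96 were tested, 4 had counts too low to be tested and 27 were not analysed here. By the adjusted p alone, 26 were higher and 21 lower, so that 49.0% passed, close to the 49.2% of all tested genes. With the fold limit 6 were called higher and 2 lower, against 4.81% and 6.18% of all tested genes. The median log2 fold change over the 96 genes was 0.015. The pathway genes named below, other than those named for comparison or for a promoter match, were checked for whole counts. Of these, Csnk2b, Cul1, Cyld, Il1r1, Ltb, Rbck1, Tax1bp1, Ube2d2 and Zc3h12a had counts more than 0.01 from a whole number. Some of their reads may be shared with other genes, so that their values are less certain.

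Upstream of the kinases, 11 of the 22 receptors and ligands were tested, of which 2 were higher and 5 lower by the adjusted p alone. That is 63.6%, against 49.2% of all tested genes, and the difference was not tested. Il1r1, which encodes the receptor that transmits IL-1 signals, was at 5929 ± 203 in control and 8747 ± 306 in siTbk1-treated cells (mean normalized count ± SD, n = 2), and its log2 fold change was 0.56 (adjusted p = 1.2e-05). Ltbr, which encodes the lymphotoxin β receptor of the non-canonical pathway, was at 3347 ± 87.4 and 2291 ± 154, with a log2 fold change of −0.55 (adjusted p = 4.2e-05). Ltb, a ligand of that receptor, was the only gene of this group past the fold limit, on estimated counts of 2.99 and 9.97 in siScramble-treated and 21.9 and 15.9 in siTbk1-treated cells. At so few reads no fold is given, and the call was lost with DESeq2 (adjusted p = 0.17) and without siScramble replicate 2 (adjusted p = 0.31), siTbk1 replicate 2 (adjusted p = 0.089) or siTbk1 replicate 3 (adjusted p = 0.054).

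Of the 15 tested adaptors and ubiquitin ligases, 3 were higher and 4 lower by the adjusted p alone. That is 46.7%, near the 49.2% of all tested genes. Rbck1, Rnf31 and Sharpin encode HOIL-1, HOIP and SHARPIN, which together form the linear ubiquitin chain assembly complex that recruits the IKK complex to activated receptors, and all of them were lower. The log2 fold change was −0.54 for Rbck1 (adjusted p = 0.00017), −0.43 for Rnf31 (adjusted p = 0.0078) and −0.36 for Sharpin (adjusted p = 0.0047). Rnf31 and Sharpin were named after their values were seen. Bcl10, which encodes an adaptor between lymphocyte receptors and IKK, was higher (0.34, adjusted p = 0.00091). Among the 17 tested genes of the IKK complex and the kinases upstream, 2 were higher and 5 lower, or 41.2%. Csnk2b, the regulatory subunit of casein kinase 2, was at −0.40 (adjusted p = 0.00024). Ripk1, a kinase and scaffold at the TNF receptor, was at 0.29 (adjusted p = 0.0021). All 12 genes for the degradation of IκB were tested, of which 5 were higher and 1 lower, or 50%, none past the fold limit. Ube2d2, a ubiquitin-conjugating enzyme, was at 0.49 (adjusted p = 5.9e-05) and Cul1, the scaffold of the ubiquitin ligase that marks IκB, at 0.44 (adjusted p = 0.00011). Others of this group are named for comparison. Btrc (−0.081, adjusted p = 0.21), Fbxw11 (−0.11, adjusted p = 0.093) and Rbx1 (−0.12, adjusted p = 0.25) did not pass. Ube2m was lower (−0.37, adjusted p = 0.00027).

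Of 12 tested negative regulators other than A20, 6 were higher and 1 lower by the adjusted p alone. That is 58.3%, against 49.2% of all tested genes (24.4% higher, 24.8% lower), and the difference was not tested. Cyld, a deubiquitinase that removes the chains on which signalling depends, was at 992 ± 15.8 in control and 1469 ± 0.728 in siTbk1-treated cells (mean normalized count ± SD, n = 2), and its log2 fold change was 0.57 (adjusted p = 4.3e-05). Itch, a ubiquitin ligase that works with A20, was at 0.51 (adjusted p = 4.2e-05), and Tax1bp1, an adaptor in the same A20 complex that was named after its value was seen, at 0.45 (adjusted p = 5.8e-05). Tnip1 (−0.013, adjusted p = 0.89) and Tnip2 (−0.18, adjusted p = 0.53) of the same group, named here for comparison, did not pass. Zc3h12a, which encodes the RNase Regnase-1 that destroys cytokine mRNAs, was the one lower by the adjusted p. Its means were 101 ± 8.58 and 55.7 ± 3.61 and its log2 fold change was −0.86 (adjusted p = 0.0035). Of the 8 remaining Rel and nuclear IκB genes, Nkap, which encodes an NF-κB activating protein, was higher (0.51, adjusted p = 0.00052) and Commd1, which promotes the removal of RelA from DNA, was lower (−0.21, adjusted p = 0.018). The call of Commd1 was lost without siScramble replicate 3 (adjusted p = 0.15) or siTbk1 replicate 3 (adjusted p = 0.11).

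Of the 34 listed NF-κB target genes 21 were tested. By the adjusted p alone, 7 were higher and 4 lower, which is 52.4%, near the 49.2% of all tested genes. With the fold limit 5 were higher and 1 lower, against 4.81% and 6.18% of all tested genes. That difference was not tested. Cxcl10, which encodes a chemokine induced by NF-κB and by interferons, had a normalized count of 416 and 422 in siScramble-treated and 902 and 898 in siTbk1-treated cells. The replicates were nearly equal in both groups, and the log2 fold change came to 1.10 (standard error 0.082, adjusted p = 2.1e-06). Its promoter holds 1 κB consensus match, shown here because Cxcl10 was the only pathway gene that also passed glmTreat, edgeR's test against a fold change of 1.5.
Cxcl10, chr14:15988869-15988898, plus strand: gcaggaaagaGGGAAATTCCaagctcatgg
Fas, which encodes a death receptor, had a normalized count of 239 and 211 in control and 418 and 379 in siTbk1-treated cells (log2 fold change 0.82, adjusted p = 0.00014). Cflar, which encodes the caspase-8 inhibitor c-FLIP and so acts against death receptor signalling, had 203 and 231 in control and 363 and 361 in siTbk1-treated cells (0.74, adjusted p = 0.00027). Cx3cl1, a membrane-bound chemokine, had 413 and 442 in control and 265 and 239.9 in siTbk1-treated cells (−0.75, adjusted p = 0.00016). These 4 targets kept their calls, with the same direction, when any 1 library was left out.

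The other 2 targets past the fold limit, Ptgs2 and Icam1, rested on few reads. Ptgs2, which encodes cyclooxygenase-2, had counts of 14 and 14 in siScramble-treated and 27 and 35 in siTbk1-treated cells, with a log2 fold change of 1.20 (adjusted p = 0.021). It was lost without siScramble replicate 2 (adjusted p = 0.094) and without siTbk1 replicate 3 (adjusted p = 0.20). Icam1, which encodes an adhesion molecule, had counts of 67 and 44 in control and 87 and 77 in siTbk1-treated cells, with a log2 fold change of 0.62 (adjusted p = 0.032). It was lost without siScramble replicate 3 (adjusted p = 0.19), siTbk1 replicate 2 (adjusted p = 0.055) or siTbk1 replicate 3 (adjusted p = 0.13), and both genes were lost with DESeq2 (adjusted p = 0.12 for Ptgs2 and 0.17 for Icam1). Of the 15 tested target genes with a promoter on hand, 3 (20%) held a κB consensus match, namely Cxcl10, Irf1 and Tapbp. Other role groups ran from 0% (IκB degradation) to 57.1% (receptors and ligands, and likewise Rel and nuclear IκB genes). Irf1 (0.19, adjusted p = 0.035) and Tapbp (−0.13, adjusted p = 0.12, not passed) were named for these matches.

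**Figure D5:**
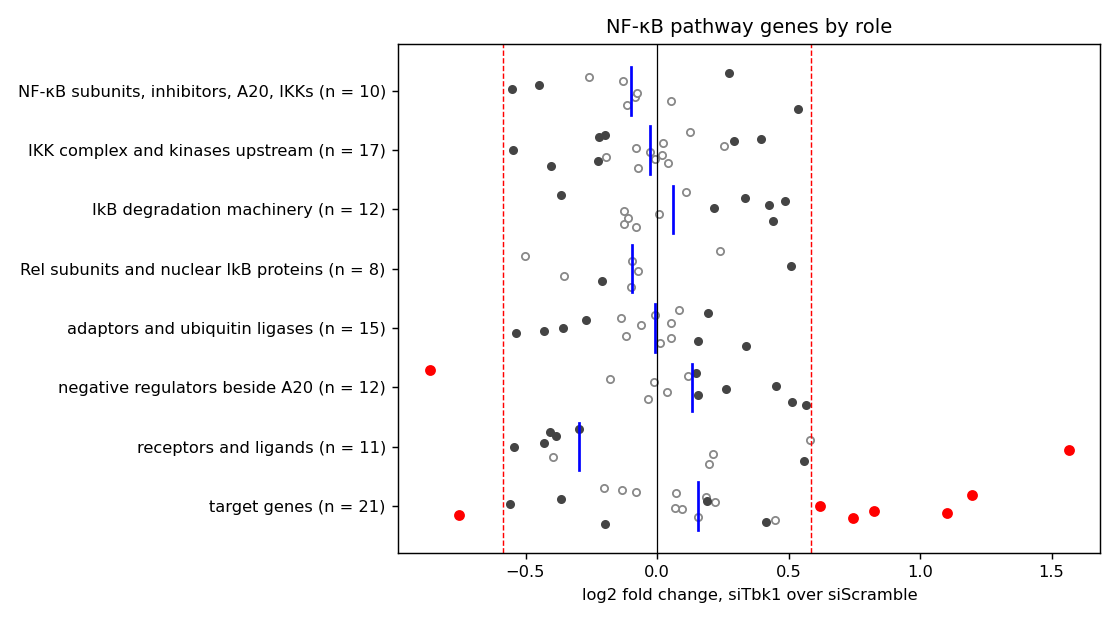
Log2 fold change (horizontal axis) of the 10 members and of the 96 tested pathway genes by role, 1 circle per gene; red circles passed the adjusted p and the fold limit, filled grey circles the adjusted p alone, open circles neither, blue bars are group medians and dashed lines a fold change of 1.5. The red circles are 6 target genes, 1 receptor ligand (Ltb) and 1 negative regulator (Zc3h12a), and none is a member.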

How the data were processed

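Per the labels, stranded mRNA libraries were made from total RNA of 4 samples. The authors deposited 1 table of estimated counts (an expected count of reads per gene), made by alignment and counting and not scaled between samples. In each library 21.1% to 22.3% of the values lie more than 0.01 from a whole number. The submitters' processing notes name STAR 2.6.1d, Partek and the rn6 build; annotation and counting settings are not given in the sources used here.

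Counts were rounded and filtered with filterByExpr (minimum count 10), which removed 1219 genes. The quasi-likelihood test of edgeR 4.0.16 with TMM factors and treatment as the only factor was fitted over 13953 genes, with Benjamini-Hochberg adjustment over all of them (R 4.3.3; limma 3.58.1 and DESeq2 1.42.0 served the alternatives). Each standard error is the absolute log2 fold change divided by the square root of F. CPM are counts per 1000000. With 38428926 to 47759013 counts per sample, 3 counts are 0.0628 to 0.0781 CPM. The 2 samples of each group differed by more than sampling noise (chi-square per degree of freedom 6.70 and 6.65). Each was counted as 1 sample, although this spread may be technical. The tests were checked on simulated data.

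The members and gene lists were chosen with earlier results of these data known. Named were all members, Tbk1, Ikbke and Ikbkg, every pathway gene called with the fold limit, and the 2 of smallest p in each role among those past the adjusted p; exceptions are marked. The within-library ratios and the promoter search were chosen after the values were seen. Promoters were matched by symbol to RefSeq (GRCr8), a later build than that of the counts. Alternatives were other tests (DESeq2, limma-voom, glmTreat), scalings and filters, removal of a loess trend along genomic span (span 0.5), a replicate block, and leaving out each sample. A crossed pairing, a block that joins samples of unlike number, was added after the data were seen. It is counted among the 12 alternative settings. Plots used matplotlib 3.10.9 under Python 3.11.15.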

Additional observations from a re-analysis of the deposited data

How the results depend on the processing

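The increase of Chuk and the decrease of Nfkbib passed the adjusted p of 0.05 in all 11 alternatives that test against no change. These include the crossed pairing, which was chosen after the data were seen. No member passed glmTreat, the test against a fold change of 1.5. Members past the adjusted p numbered 1 higher and 1 lower with DESeq2, 1 higher and 4 lower with library size alone, and 1 higher with the replicate block; with library size alone 1 member, Nfkbib, was also lower past the fold limit. Leaving out 1 library gave 1 higher in each case and between 1 and 3 lower, with 0 to 1 lower past the fold limit (Nfkbib, without siScramble replicate 2 or siTbk1 replicate 3). In these fits the group left with 1 sample is assumed to vary like the other. For pathway genes past the fold limit, DESeq2 gave 3 higher, library size alone 5 lower, glmTreat 1 higher and 0 lower, and a library left out between 3 and 5 higher and between 2 and 6 lower (6 without siTbk1 replicate 2, 3 higher without siTbk1 replicate 3); by the adjusted p alone DESeq2 gave 16 higher. Over all genes, glmTreat called 163 higher and 101 lower, and a library left out between 552 and 756 higher and between 574 and 1159 lower (574 without siScramble replicate 3). Of the calls over all genes 43.8% were higher, against 34.1% with library size alone and 61.7% with glmTreat.

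Members that did not pass changed sign in places: Nfkb1 was at −0.064 with the length trend removed, −0.063 with the replicate block as well, and between −0.013 and 0.12 with 1 library left out (lowest without siScramble replicate 2); Nfkb2 was at 0.022, 0.018 in the same settings and between −0.24 and 0.042 with 1 left out (highest without siTbk1 replicate 3); Nfkbia was at 0.039 and 0.038 in those settings. With 1 library left out, differences between the groups (siTbk1 minus siScramble) in the log2 of a ratio also changed sign. For Nfkb2 to Rela the difference lay between −0.062 (without siTbk1 replicate 2) and 0.13. For Nfkbib to Nfkbie it lay between −0.22 and 0.033 (0.024 without siScramble replicate 3, 0.033 without siTbk1 replicate 2). The cause was not tested.

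Over all tested genes, the departures of samples with the same number from the mean of their group correlated at 0.0041 (Pearson) and −0.20 (Spearman), and over the 7945 genes with a mean log2 CPM of at least 4 at −0.39 and −0.43, so the numbers were not taken to pair the samples. With the replicate number as a block, 699 genes were higher and 898 lower past the fold limit, and among genes named here the calls of Tnfaip3 (adjusted p = 0.067) and Ikbkg (adjusted p = 0.087, edgeR's quasi-likelihood test) were lost. With the crossed pairing, chosen after the data were seen, 648 were higher and 872 lower. Tbk1 stayed between −2.16 and −2.01 in every setting. Low counts limit Ltb, Ptgs2 and Icam1.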
